A study of Mus musculus with 6 samples.

Results

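The 33 genes described here encode proteins that bring long-chain fatty acids into cells and burn them in mitochondria. They were taken by name from the table of 17524 genes, and the list was chosen with earlier results of these data known. All 33 were matched by their symbol to the RefSeq gene table of build GRCm38.p6, and all 33 were among the 13565 genes with enough counts to be tested. The series holds 6 mouse heart libraries. The 3 libraries of the TFEB overexpression group (TFEB 34, 41 and 43, after the numbers in their titles) came from R26-LSL-TFEB [+/+]; Acta2-cre mice. In these mice a Cre recombinase driven by the Acta2 promoter (Acta2 is the actin of smooth muscle) switches on a copy of transcription factor EB (TFEB) at the Rosa26 locus. The transgene is thus meant for cells in which that promoter has been active. Which cells of these hearts had it switched on is not given. The 3 control libraries (controls 35, 36 and 37) are labelled WT, and whether they carried Cre or the silent cassette is not given, so an effect of either and an effect of TFEB cannot be told apart. The left anterior descending coronary artery was ligated in both groups, which causes an infarct. Age, sex and the time after ligation are not given in the labels used here, nor whether each library is 1 animal, so a p-value here speaks of the scatter among 6 libraries, which may be technical.

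The adult heart takes most of its ATP from fatty acids. Lipases free them from blood lipoproteins, carriers take them across the cell membrane, and acyl-CoA synthetases activate them in the cytosol. The carnitine shuttle then moves them through the mitochondrial membranes, and each turn of beta-oxidation removes an acetyl-CoA by dehydrogenation, hydration, a second dehydrogenation and thiolysis. Electrons from the acyl-CoA dehydrogenases reach the respiratory chain through electron transfer flavoprotein. PPAR nuclear receptors, which fatty acids bind, raise many of these genes, and after infarction the programme is known to fall in stressed heart muscle. TFEB is best known as an activator of lysosome and autophagy genes, and in liver it has also been tied to fatty acid breakdown.

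Library totals ran from 12942480 to 14969287 estimated counts. Whether reads of the cassette were counted with the Tfeb gene is not given. The Tfeb gene had 34.4, 33.8 and 41.4 CPM (counts scaled to library size by TMM) in the controls, always listed in the order 35, 36, 37, against 45.4, 45.3 and 39.4 CPM in the TFEB libraries, listed as 34, 41, 43 (log2 fold change 0.25, SE 0.12, edgeR adjusted p = 1.00). The labels name primary fibroblasts beside heart tissue, but the cardiomyocyte markers were abundant: the 19 genes of that list summed to between 105617 and 140336 CPM in the controls and between 85472 and 153849 CPM in the TFEB libraries, with Myh6 and Atp2a2 the most abundant. The libraries of a group were unlike each other in cell markers. The 12 fibroblast and matrix genes, led by Col3a1 and Col1a2, summed to 21495 CPM in TFEB 34 and to 2354 CPM in TFEB 43, with the controls between 3136 and 13480 CPM. In bulk tissue, fewer cells of a type and less RNA per cell cannot be told apart. When each library was left out in turn, the difference between the groups changed sign in 31 of 33 members. The same share over all genes is not given here, so the count is not read as particular to the members.

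No difference of a fatty acid gene between the groups passed the test. Of the 33 members, 0 were called higher and 0 lower in TFEB overexpression by edgeR's quasi-likelihood test at an adjusted p under 0.05, where 0% of all genes tested were called. At an unadjusted p under 0.05 the count was 0 of 33, against 1.21% of all genes. DESeq2 and limma-voom also called 0 of 33, and DESeq2 called 1 gene of the whole table, Ddit4, where edgeR called 0. In 0 of 33 did the 3 TFEB values lie wholly above or wholly below the 3 control values, against 2.24% of all genes that lay above and 2.51% that lay below. The log2 fold changes ran from −0.30 (Slc27a1) to 0.39 (Ucp3), with a median of −0.10, beside a median of 0.00 over all genes. Of the members 30 (90.9%) lay below 0, against 49.0% of all genes, but members share libraries and are not separate observations. The size and sign of that small lean varied with the library left out. The median was 0.14 without TFEB 34 and 0.03 without control 37. It was −0.04 without TFEB 41, −0.14 without control 35, −0.20 without control 36 and −0.45 without TFEB 43. The median SE of the members was 0.32, against 0.18 over all genes tested.

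**Figure D1:**
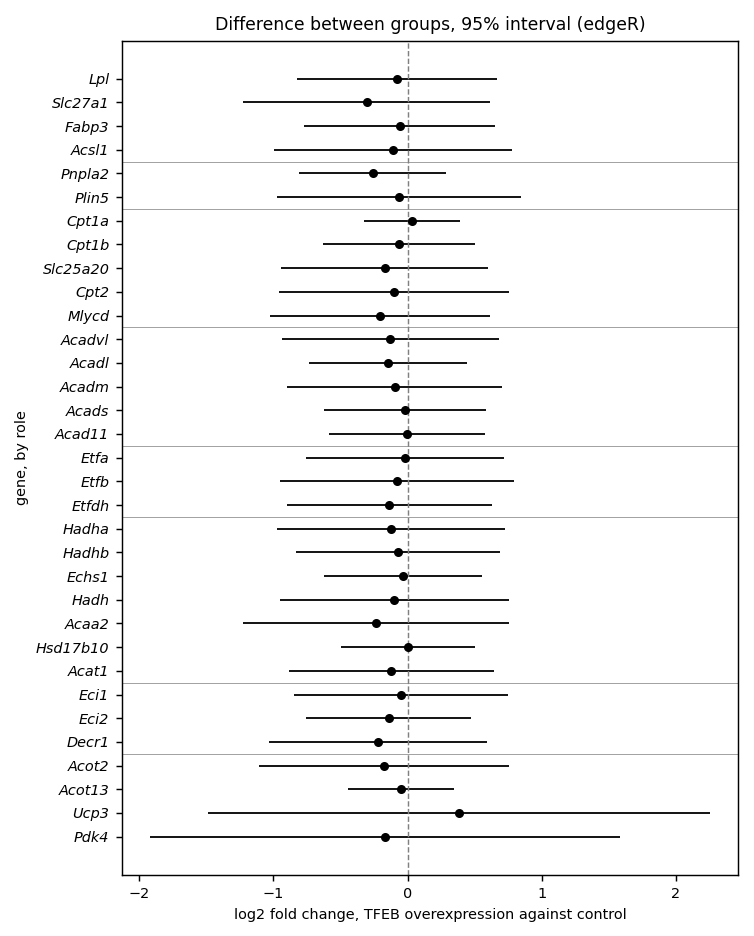
Log2 fold change of each of the 33 genes, TFEB overexpression against control (horizontal axis), with its 95% confidence interval from the edgeR fit; the genes stand on the vertical axis by role, with lines between roles. Every interval includes 0, the narrowest is that of Cpt1a (−0.33 to 0.39) and the widest that of Ucp3 (−1.48 to 2.26).

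What the libraries did show was 1 shared order. In 32 of 33 members TFEB 34 was the lowest of the 6 libraries, in 31 TFEB 43 was the highest, and in 30 (90.9%) both held, against 15.3% of all genes tested. The exceptions were Cpt1a, lowest in TFEB 41, and Pnpla2 and Acadl, both highest in control 37. The values of all 3 controls lay inside the range of the TFEB libraries in 31 members (93.9%), against 5019 of all 13565 genes tested. TFEB 43 stood above TFEB 34 by a median of 2.32-fold over the members, where the median over all genes was 0.996. Among the controls, control 37 was the highest in 31 members, against 4558 of all 13565 genes tested. It stood a median of 1.39-fold above control 36 over the members, where the median over all genes was 0.998. Because the list was chosen with earlier results of these data known, these shares are a description only.

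**Figure D2:**
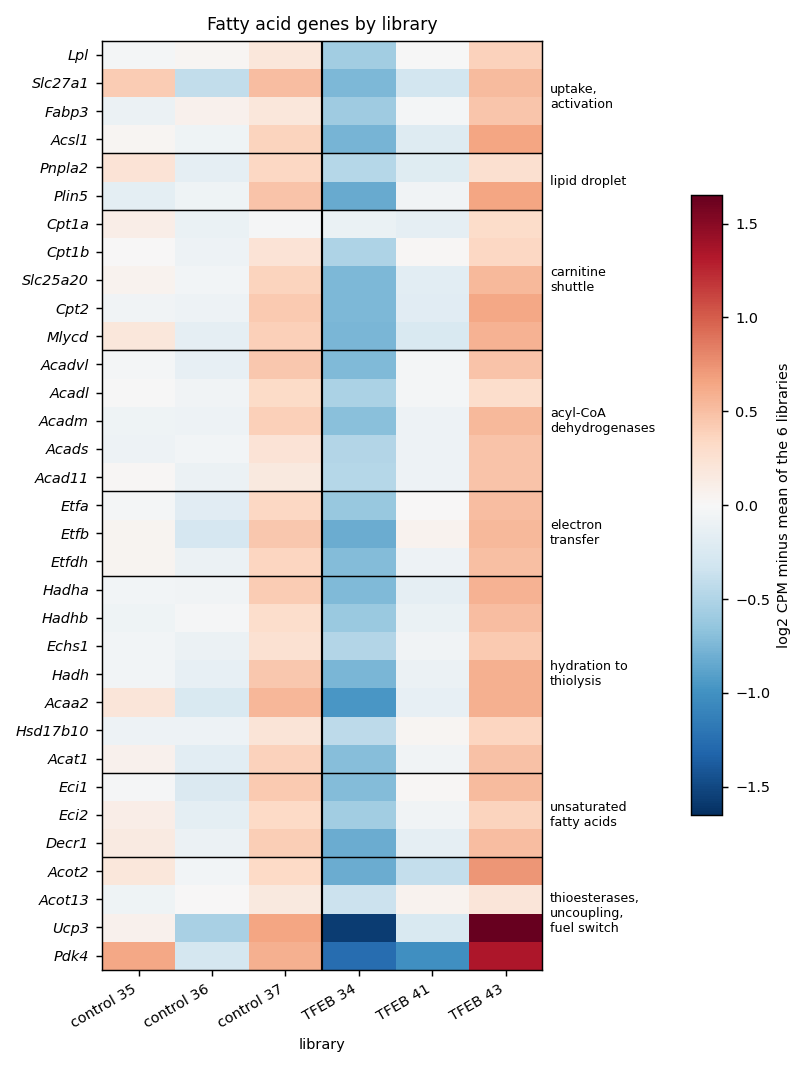
Log2 CPM of each gene minus its mean over the 6 libraries (colour; red above, blue below) for the 33 genes in rows, by role, and the 6 libraries in columns, with controls to the left of the vertical line. TFEB 34 is blue and TFEB 43 red in nearly every row, Cpt1a is pale throughout, and Ucp3 and Pdk4 have the strongest colours.

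Per transcript length, measured as TPM (a length-scaled share of all transcripts) summed over the transcripts of a gene, the members spanned a wide range of levels. Together they held 2.58%, 2.70% and 3.01% of all TPM in controls 35, 36 and 37 and 1.83%, 2.52% and 3.39% in TFEB 34, 41 and 43. Fabp3, the fatty acid binding protein of heart muscle, was the highest at 9386 ± 1726 TPM (SD, n = 6 libraries), which was place 10 among all genes. Lpl followed at 2608 ± 403 TPM and Hadhb at 1750 ± 352 TPM, and these 3 stood apart from the next gene by more than the SD. From Etfb (1161 ± 301 TPM) down to Eci2 (194 ± 34.8 TPM) no gene differed from the next in order by more than the larger SD of the pair. That SD includes the shift between libraries, which the genes share. Compared within each library, Hadha, Etfa, Hadh, Cpt1b, Acat1 and Hsd17b10 stood above the next gene in all 6. The other genes of this stretch did so in 2 to 5 libraries. Acads (192 ± 32.0 TPM) stood above Cpt2 (148 ± 39.8 TPM), and Cpt2 above Mlycd (101 ± 26.3 TPM), by more than that SD. The lowest were Ucp3 at 59.6 ± 43.6 TPM, Acot2 at 46.1 ± 14.2 TPM and Cpt1a at 44.5 ± 4.02 TPM, which did not differ from each other beyond their spread.

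**Figure D3:**
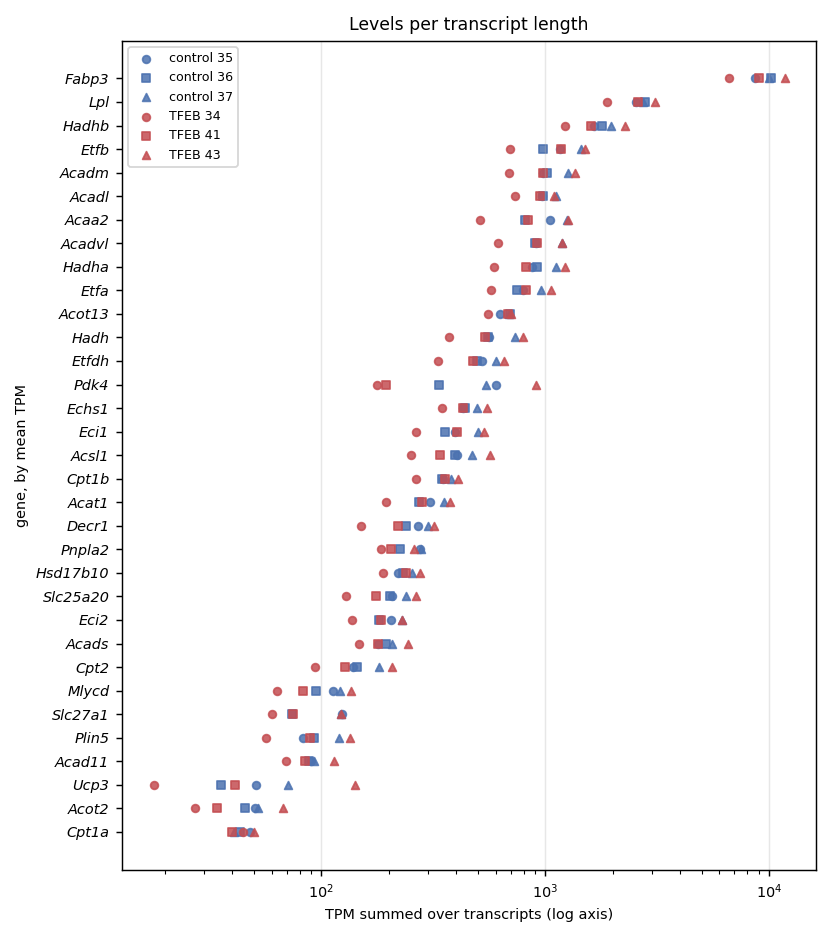
TPM of each gene (horizontal log axis) in the 6 libraries (blue controls, red TFEB overexpression; shapes mark the library), with genes on the vertical axis ordered by their mean over all libraries. Fabp3 is the highest at 9386 TPM on average and Cpt1a the lowest at 44.5, and the circle of TFEB 34 is leftmost for most genes.

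The 4 uptake and activation genes were all lowest in TFEB 34 and highest in TFEB 43. Lpl (chromosome 8, 68880555 to 68906932, build GRCm38.p6) encodes lipoprotein lipase, which frees fatty acids from lipoproteins at the capillary wall. It stood at 5814, 6097 and 6752 CPM in the controls and at 4001, 5931 and 7756 CPM in TFEB 34, 41 and 43. The TFEB values bracketed all controls, with group means of 6221 ± 481 and 5896 ± 1877 CPM (SD, n = 3 each; log2 fold change −0.08, SE 0.31, edgeR adjusted p = 1.00). Fabp3 (chromosome 4, 130308738 to 130315463), which carries fatty acids through the cytosol, stood at 2164, 2421 and 2634 CPM in the controls and at 1528, 2252 and 3155 CPM in the TFEB libraries. Its log2 fold change was −0.06 (SE 0.30). Slc27a1, a fatty acid transporter that is also found on other cell types, split its controls: 239, 135 and 254 CPM, against 107, 145 and 257 CPM in TFEB 34, 41 and 43. Control 36 was there as low as TFEB 41, and the log2 fold change of −0.30 (SE 0.38) was the lowest of all members. Acsl1, the main acyl-CoA synthetase of heart muscle, ran from 498 CPM in TFEB 34 to 1333 CPM in TFEB 43, with controls from 806 to 1089 CPM (−0.11, SE 0.37).

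Of the lipid droplet genes, Pnpla2, which encodes the triglyceride lipase ATGL, stood at 396, 307 and 427 CPM in the controls and at 244, 294 and 405 CPM in TFEB 34, 41 and 43. It was 1 of only 2 members, with Slc27a1, whose log2 fold change kept its sign when any 1 library was left out (−0.26, SE 0.23, between −0.48 and −0.11 in those fits). Plin5, a droplet coat protein of oxidative tissues, stood at 84.8, 90.3 and 132 CPM in the controls and at 53.3, 91.2 and 149 CPM in TFEB 34, 41 and 43. Its middle values coincided, and the difference was −0.06 (SE 0.38) on the log2 scale.

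The carnitine shuttle genes moved with the shared order, apart from Cpt1a. CPT1 makes acylcarnitines at the outer mitochondrial membrane and is the controlled step of the shuttle. Cpt1b is the muscle form and Cpt1a the form of liver and many other cell types. Cpt1b (chromosome 15, 89416405 to 89425862) stood at 560, 525 and 652 CPM in the controls and at 390, 566 and 705 CPM in TFEB 34, 41 and 43 (log2 fold change −0.06, SE 0.24). Cpt1a (chromosome 19, 3322326 to 3385735) stood at 118, 100.4 and 107 CPM in the controls and at 100.4, 97.8 and 134 CPM in the TFEB libraries. Its highest library was 1.37 times its lowest, the smallest range of any member, where Cpt1b ranged over 1.81 times. The Cpt1a difference of 0.03 (SE 0.15) corresponds to a fold of 1.02 with a 95% interval from 0.797 to 1.31, the tightest limit that these libraries set for a member. The TPM ratio of Cpt1b to Cpt1a was 7.29, 8.02 and 9.37 in the controls and 5.96, 8.89 and 8.10 in TFEB 34, 41 and 43, so the muscle form prevailed in every library and the groups overlapped. About 93.4% of Cpt1a TPM over all libraries came from 1 transcript model. That model alone stood at 37.7, 36.5 and 40.6 TPM in the controls and at 44.4, 39.8 and 50.1 TPM in TFEB 34, 41 and 43. Another model held 10.45 and 6.53 TPM in controls 35 and 36 and 0 in the other libraries, and it is part of the ratio above. The whole span of Cpt1b lies within that of a long noncoding RNA gene, Gm44502, and 28962 bases of the Acad11 gene overlap Ackr4, which stood at 9.20 CPM on average. Whether reads were counted by strand is not given, so reads of overlapping genes cannot be told apart.

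The 250 bases before the start in the Cpt1a promoter window of RefSeq (GRCm38.p6, chr19:3323051-3323300, plus strand) are shown because Cpt1a is the member that varied least. That start lies inside the gene span given above, which begins further upstream. Capitals mark AGGTCA or its reverse complement TGACCT, the hexamer that PPAR and related receptors read, here and in the other promoters below.
Cpt1a: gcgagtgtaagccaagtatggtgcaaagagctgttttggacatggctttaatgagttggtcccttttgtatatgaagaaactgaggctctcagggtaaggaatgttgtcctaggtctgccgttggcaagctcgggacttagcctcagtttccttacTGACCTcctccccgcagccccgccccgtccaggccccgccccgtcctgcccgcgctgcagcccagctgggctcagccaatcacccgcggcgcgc

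The other shuttle genes shared the order of the libraries. Slc25a20, the carrier that exchanges acylcarnitine for carnitine across the inner membrane, stood at 186, 173 and 230 CPM in the controls and at 107, 158 and 258 CPM in TFEB 34, 41 and 43 (−0.17, SE 0.32). Cpt2, which turns acylcarnitine back into acyl-CoA in the matrix, stood at 175, 172 and 245 CPM and at 109, 161 and 283 CPM (−0.10, SE 0.36). Mlycd, the decarboxylase that removes the CPT1 inhibitor malonyl-CoA, stood at 126, 100.1 and 145 CPM and at 65.3, 92.8 and 164 CPM (−0.20, SE 0.34). In each of these 3 genes TFEB 34 and TFEB 41 lay below all controls and TFEB 43 above them.

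The acyl-CoA dehydrogenases, which start each turn of oxidation on chains of different length, showed the same pattern with differences near 0. Acadm, the medium-chain enzyme (chromosome 3, 153922353 to 153944643), stood at 1068, 1053 and 1475 CPM in the controls and at 693, 1056 and 1615 CPM in TFEB 34, 41 and 43. TFEB 41 coincided with controls 35 and 36, with group means of 1199 ± 240 and 1121 ± 464 CPM (SD, n = 3 each; −0.10, SE 0.33). The very-long-chain enzyme Acadvl ran from 658 CPM in TFEB 34 to 1512 CPM in TFEB 43 (−0.13, SE 0.33) and the long-chain enzyme Acadl from 686 CPM in TFEB 34 to 1224 CPM in control 37 (−0.14, SE 0.24). The short-chain enzyme Acads (−0.02, SE 0.25) and Acad11, an enzyme for longer chains (−0.00, SE 0.24), ranged 1.95 and 1.93 times between libraries. The promoter of Acadm (chr3:153944644-153944893, minus strand) is shown because nuclear receptor control of this gene is a textbook case of the pathway's regulation.
Acadm: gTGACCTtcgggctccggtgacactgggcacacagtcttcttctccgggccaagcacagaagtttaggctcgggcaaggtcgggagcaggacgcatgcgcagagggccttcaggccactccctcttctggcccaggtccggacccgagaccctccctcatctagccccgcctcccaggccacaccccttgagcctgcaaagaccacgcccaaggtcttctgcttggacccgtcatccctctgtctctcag

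Electron transfer flavoprotein is a dimer of the Etfa and Etfb products, and Etfdh encodes the membrane enzyme that passes its electrons to ubiquinone. Etfa stood between 385 CPM in TFEB 34 and 841 CPM in TFEB 43, Etfb between 246 and 629 CPM and Etfdh between 375 and 871 CPM in the same libraries. The differences were −0.02 (SE 0.31), −0.08 (SE 0.36) and −0.13 (SE 0.32). The subunits kept nearly the same proportion while their levels changed: the TPM ratio of Etfa to Etfb was 0.684, 0.766 and 0.664 in the controls and 0.827, 0.697 and 0.705 in TFEB 34, 41 and 43. The highest ratio was 1.25 times the lowest, where Etfb alone ranged over 2.55 times.

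The trifunctional protein, which carries out the last 3 steps of oxidation on long chains, is built from the Hadha and Hadhb products. These genes lie head to head on chromosome 5, Hadha at 30119423 to 30154980 on the minus strand and Hadhb at 30155253 to 30184593 on the plus strand, with 272 bases between them. Hadha stood at 1295, 1290 and 1786 CPM in the controls and at 805, 1214 and 1992 CPM in TFEB 34, 41 and 43. Group means came to 1457 ± 285 and 1337 ± 603 CPM (SD, n = 3 each; −0.12, SE 0.35). Hadhb stood at 1774, 1836 and 2276 CPM and at 1218, 1727 and 2660 CPM (−0.07, SE 0.31). TFEB 34 was low and TFEB 43 high for both, and the groups overlapped. Their TPM ratio was 0.530, 0.510 and 0.569 in the controls and 0.480, 0.510 and 0.544 in TFEB 34, 41 and 43, a range of 1.19 times, where Hadha itself ranged over 2.47 times. The 250 bases before the start of Hadha (chr5:30154981-30155230, minus strand) are shown because both genes start from this stretch: 228 bases, from 30155003 to 30155230, are also in the promoter window of Hadhb. They hold no AGGTCA hexamer.
Hadha: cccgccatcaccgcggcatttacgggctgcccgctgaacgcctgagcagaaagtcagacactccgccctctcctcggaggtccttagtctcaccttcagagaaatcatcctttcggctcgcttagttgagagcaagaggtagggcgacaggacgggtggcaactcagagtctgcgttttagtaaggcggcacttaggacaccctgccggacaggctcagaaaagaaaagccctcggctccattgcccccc

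The remaining enzymes of the turn were alike. Echs1, the short-chain hydratase, stood between 240 and 449 CPM (−0.03, SE 0.25), and Hadh, the dehydrogenase for shorter chains, between 317 and 799 CPM (−0.10, SE 0.35). Acaa2, the thiolase of medium chains, had the widest range in this set, from 353 CPM in TFEB 34 to 1031 CPM in TFEB 43, with controls at 783, 574 and 1005 CPM (−0.23, SE 0.41). Hsd17b10, which acts mainly on branched acyl-CoA, and Acat1, the acetoacetyl-CoA thiolase, stood at 0.00 (SE 0.21) and −0.12 (SE 0.32). The enzymes that prepare double bonds for oxidation, Eci1, Eci2 and Decr1, stood at −0.05 (SE 0.33), −0.14 (SE 0.26) and −0.22 (SE 0.34). All 8 of these genes were lowest in TFEB 34 and highest in TFEB 43.

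Pdk4 and Ucp3 spread most between libraries. Pdk4 (chromosome 6, 5483351 to 5496278) encodes the kinase that shuts pyruvate dehydrogenase and so turns the heart from glucose to fatty acids. It stood at 1170, 616 and 1132 CPM in the controls and at 314, 374 and 1910 CPM in TFEB 34, 41 and 43. TFEB 34 and TFEB 41 lay below every control and TFEB 43 above every control, a range of 6.08 times. Group means came to 972 ± 309 and 866 ± 905 CPM (SD, n = 3 a group), and the fold of 0.891 had a 95% interval from 0.265 to 3.00 (log2 fold change −0.17, SE 0.73, edgeR adjusted p = 1.00). Without TFEB 43 the difference was −1.50, without TFEB 34 it was 0.23 and without TFEB 41 it was 0.21. With all libraries kept it was −0.58 by limma-voom, −0.61 on log2(TPM + 1), −0.62 with the cardiomyocyte level as covariate and −0.53 with the fibroblast and matrix level. Ucp3 (chromosome 7, 100472991 to 100486432), a mitochondrial carrier known to follow fatty acid supply, stood at 67.6, 44.5 and 101 CPM in the controls and at 21.7, 54.2 and 203 CPM in the TFEB libraries. Its range of 9.36 times was the widest of the 33. Group means came to 71.1 ± 28.4 and 93.0 ± 96.7 CPM (SD, n = 3 each; 0.39, SE 0.78). The difference was 0.86 without TFEB 34, −0.91 without TFEB 43, and −0.11 by limma-voom with all libraries, so its sign was not settled.

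**Figure D4:**
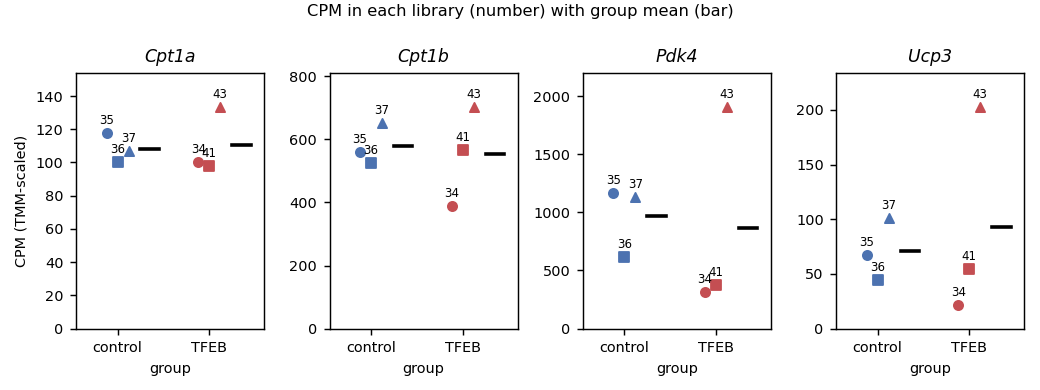
CPM (vertical axes from 0, a separate scale per gene) of Cpt1a, Cpt1b, Pdk4 and Ucp3 in each library, by group; numbers are the library numbers and black bars the group means. Cpt1a lies between 97.8 and 134 CPM, while in Pdk4 TFEB 43 stands at 1910 CPM and TFEB 34 and 41 at 314 and 374 CPM.

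The promoters of both genes are shown as those of the members with the widest spread. The Ucp3 stretch is chr7:100472741-100472990, plus strand, and the Pdk4 stretch chr6:5496279-5496528, minus strand. The former holds 2 of the hexamers and the latter 0.
Ucp3: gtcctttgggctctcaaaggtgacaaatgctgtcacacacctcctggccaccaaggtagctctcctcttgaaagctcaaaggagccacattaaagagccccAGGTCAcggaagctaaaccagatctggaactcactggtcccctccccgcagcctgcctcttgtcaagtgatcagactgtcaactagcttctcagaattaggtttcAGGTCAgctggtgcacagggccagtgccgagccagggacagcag
Pdk4: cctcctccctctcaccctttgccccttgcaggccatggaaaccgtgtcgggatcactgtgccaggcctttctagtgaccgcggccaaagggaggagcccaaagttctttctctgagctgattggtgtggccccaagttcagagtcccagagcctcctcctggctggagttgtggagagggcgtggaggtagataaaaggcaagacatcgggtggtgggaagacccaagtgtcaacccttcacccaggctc

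The thioesterases release free fatty acid from acyl-CoA inside mitochondria. Acot2 stood at 59.1, 50.6 and 65.3 CPM in the controls and at 29.6, 39.8 and 86.0 CPM in TFEB 34, 41 and 43 (−0.17, SE 0.39), again with 2 TFEB libraries below and 1 above all controls. It has a close paralogue, Acot1, on the same chromosome, and the authors' quantification could divide reads between them. With the counts of both summed, the difference was −0.24. Acot13 varied little, from 130 to 192 CPM, a range of 1.48 times (−0.05, SE 0.16).

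Without TFEB 43, 5 members had an unadjusted p under 0.05, all lower in TFEB overexpression: Pdk4 (−1.50, SE 0.33), Acot2 (−0.75, SE 0.18), Mlycd (−0.65, SE 0.22), Slc25a20 (−0.57, SE 0.22) and Pnpla2 (−0.48, SE 0.19). In that fit 2.08% of all genes were lower at such a p, and the edgeR adjusted p of each of the 5 was 0.792. In each of the 5, TFEB 43 was the highest of the TFEB libraries, so leaving it out lowers the TFEB mean by itself. With all libraries kept, these genes were also below 0, at −0.17, −0.17, −0.20, −0.17 and −0.26 in the same order. In each of them TFEB 34 and TFEB 41 lay below all controls. In the fit without TFEB 34, 0 members had an unadjusted p under 0.05. In these fits, reaching such a p thus turned on which TFEB library was left out.

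Of the 27 members with a RefSeq promoter window (250 bases before to 50 after the start, 31 windows), 6 held AGGTCA on either strand: Acadm, Acadvl, Cpt1a, Echs1, Plin5 and Ucp3. That was 22.6% of their windows, against 12.6% of the windows of all tested genes and 16.3% of all 32851 windows. This single hexamer was added after the other results were seen. The longer PPAR element, AGGTCA repeated with any 1 base between the copies, matched 0 of 31 member windows, 0.0362% of those of tested genes and 0.0396% of all. The ERR element TCAAGGTCA matched 0, 0.282% and 0.423%, and the lysosomal TFEB element core TCACGTGA matched 0, 1.69% and 0.974%. The E-box CACGTG, which lies within that core, was in 1 member window, that of Slc27a1, in 9.63% of those of tested genes and in 7.15% of all. Both strands were searched for each, AGGTCA is also part of both longer receptor elements, and a match is a description of the letters only. Lpl, Cpt1b, Acaa2, Acat1, Decr1 and Acot13 had no window here.

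The mitochondrial and cardiomyocyte lists, like the members, were lowest in TFEB 34 and highest in TFEB 43, while the fibroblast and matrix list was highest in TFEB 34 and lowest in TFEB 43. Each list was summed up, library by library, as its genes' average log2 CPM minus the average over all 6 libraries. For the 33 members it was 0.05, −0.13 and 0.35 in controls 35, 36 and 37 and −0.69, −0.13 and 0.54 in TFEB 34, 41 and 43. For 20 mitochondrial genes other than the beta-oxidation enzymes, such as those of the citrate cycle and respiratory chain, it ran from −0.49 in TFEB 34 to 0.39 in TFEB 43. All 20 were lowest in TFEB 34 and highest in TFEB 43, with a median ratio of 1.89 between these libraries, smaller than the 2.32 of the members. For the 19 cardiomyocyte genes the level ran from −0.36 to 0.30 between the same libraries, and 11 of 19 genes had these extremes. Its libraries in between stood in another order than for the members, with control 35 at −0.19, control 36 at −0.07 and TFEB 41 at 0.10. The fibroblast and matrix list stood at 1.39 in TFEB 34 and −1.63 in TFEB 43, and the 15 macrophage genes at 1.09 and −0.88. The 11 endothelial genes stayed between −0.06 and 0.04. The 8 smooth muscle and pericyte genes, led by Rgs5 and Abcc9, stood at −0.32, −0.02 and −0.07 in the controls. In TFEB 34, 41 and 43 they stood at 0.33, 0.30 and −0.22, so the groups overlapped. The 4 atrial muscle genes had an order of their own, at 5.50, −3.13 and 1.71 in the controls and −3.09, −1.03 and 0.04 in the TFEB libraries. They were led by Nppa and Myl4 and set control 35 apart, and Sln was at 0 in control 36 and TFEB 34. The part of atrial tissue in the members' values was not tested.

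**Figure D5:**
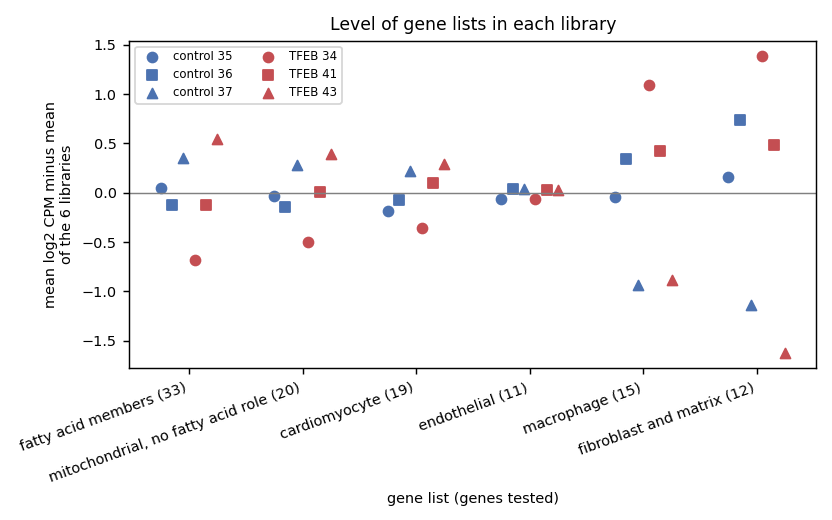
Mean log2 CPM of 6 gene lists minus the mean of the 6 libraries (vertical axis) in each library (blue controls, red TFEB overexpression; shapes mark the library). The fatty acid genes run from −0.69 in TFEB 34 to 0.54 in TFEB 43, as do mitochondrial and cardiomyocyte genes over a smaller range, and the matrix genes run the other way, from 1.39 to −1.63. The mitochondrial list, labelled there as without a fatty acid role, holds genes other than the beta-oxidation enzymes.

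The part of tissue makeup in the members' values was not tested as a cause, but fits with a list level as a covariate were made. With the fibroblast and matrix level the median SE of the members fell from 0.32 to 0.12, the median difference was −0.11, and 0 passed. Pnpla2 was the only member with an unadjusted p under 0.05 there (−0.24, SE 0.09, edgeR adjusted p = 0.988), where 3.88% of all genes had one. With the cardiomyocyte level the median SE was 0.14 and the median difference −0.20, beside a median of −0.01 over all genes. There 32 of 33 members lay below 0, again with 0 passing. The members share the same libraries and moved together, so these 32 are not separate observations. Relative to the mitochondrial list, the members stood at 0.08, 0.02 and 0.07 in the controls and at −0.19, −0.13 and 0.15 in TFEB 34, 41 and 43, so that 2 TFEB libraries lay below and 1 above all controls. The adipocyte markers summed to 45.6, 230 and 14.9 CPM in the controls and to 0.191, 9.59 and 7.27 CPM in the TFEB libraries. In TFEB 34, 5 of the 8 genes (Adipoq, Cidec, Lep, Retn and Adrb3) were at 0. All 4 adipocyte genes tested lay wholly lower in the TFEB libraries, against 2.51% of all genes. Each had an unadjusted edgeR p under 0.05, and 0 passed. The part of fat cells in the values of Lpl, which they also express, was not tested.

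Other genes of fatty acid handling, 62 in all with 61 tested, showed 0 called, a median difference of −0.06 and 28 genes (45.9%) with the order of TFEB 34 lowest and TFEB 43 highest. Of 27 genes for uptake, activation and storage, 0 passed. The fatty acid receptor gene Cd36 stood at 1591, 1729 and 1904 CPM in the controls and at 1165, 1535 and 2077 CPM in TFEB 34, 41 and 43 (−0.13, SE 0.25). The acyl-CoA synthetase gene Acsl3 had the smallest p of these lists and groups that did not overlap, at 11.6, 12.1 and 12.1 CPM against 10.4, 9.15 and 9.67 CPM (−0.30, SE 0.12, edgeR adjusted p = 1.00). Plin4 (−0.28, SE 0.15), Acaca (−0.37, SE 0.21) and Fabp4 (−0.26, SE 0.17) followed. Acaca and Fabp4 were highest in control 36, the library with the highest adipocyte marker sum, and Plin4 in control 35. The part of fat cells in these values was not tested. Of 21 further mitochondrial acyl-CoA, ketone and fuel genes 0 passed, with Acot11 (−0.17, SE 0.09), Acad10 (−0.28, SE 0.19), Acot7 (0.14, SE 0.11) and Ucp2 (−0.64, SE 0.52) at the smallest p. The Acot11 groups did not overlap, at 36.4 to 39.4 CPM in the controls and 31.6 to 35.9 CPM in the TFEB libraries. Over the 61 genes tested, 2 (Acsl3 and Acot11) lay wholly below the controls, against 2.51% of all genes. Wholly above lay 0, against 2.24%. Of 13 tested peroxisomal genes 0 passed. The importer gene Abcd2 stood at −0.52 (SE 0.22), Acot8 at 0.22 (SE 0.18) and Crot at −0.10 (SE 0.11). Peroxisomal genes ranged less between libraries than the members, a median of 1.41 times against 2.32 times.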

How the data were processed

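RNA of 6 mouse heart libraries (3 of TFEB overexpression, 3 controls) was sequenced. The authors deposited, per the file headers, an estimated count, a TPM and an FPKM value for each of 62498 RefSeq transcripts and each library. Tools named in the submitters' processing notes, without their roles, are RSEM 1.3.1, DESeq2 1.4.5, HISAT2 2.1.0 and Bowtie2 2.3.4.3, with build mm10. The strand setting, like the annotation release, was not given in the sources used here. A further 6 columns of normalised read counts hold no values and were not used.

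Values were summed over the transcripts of each of 17524 genes, and summed estimated counts were rounded. The 117 genes without a symbol held 0.51% of counts. Genes were kept by edgeR's default expression filter, scaled by TMM and tested with edgeR 4.0.16 (R 4.3.3) by quasi-likelihood F-tests over all 6 libraries, TFEB overexpression against control, with Benjamini-Hochberg adjustment over 13565 genes and a threshold of 0.05. Alternatives were DESeq2 1.42.0, limma 3.58.1 (voom, or trend on log2 of TPM or FPKM with a pseudocount of 1 or 0.1 and a minimum of 1 in 3 libraries), other scalings and filters, list levels as covariates, each library left out, and summed Acot1 and Acot2. The code was tested on simulated data. Promoter windows and coordinates came from RefSeq tables of GRCm38.p6, the patched form of mm10. Figures were drawn with matplotlib 3.10.9.

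The 33 members and all lists were chosen with earlier results of these data known. All members are named, with the value in every library for Lpl, Fabp3, Cpt1a, Cpt1b, Acadm, Hadha, Ucp3, Pdk4 and Plin5 and for any member with an unadjusted p under 0.05 or groups that do not overlap. Other members given in full were chosen after their values were seen. Of each other fatty acid list the 4 genes with the smallest p were named, and Cd36, except 1 gene that is not reported here. Of marker lists only genes at 0 and the 2 most abundant were named.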

Additional observations from a re-analysis of the deposited data

How the results depend on the processing

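With edgeR, 0 of 33 members and 0 of all genes were called under TMM, RLE and upper-quartile scaling, with and without the low-count filter, with either list level as a covariate and at an adjusted p under 0.1. DESeq2 called 1 gene, Ddit4 (log2 fold change −1.32, adjusted p = 0.00898), and 0 members. Some differences changed sign with the method, namely those of Acad11 (−0.00) and Hsd17b10 (0.00), both near 0, and that of Ucp3 (0.39, SE 0.78). Acad11 came to 0.00 with RLE or upper-quartile scaling and without the low-count filter, and to 0.01 by DESeq2. With the cardiomyocyte level as covariate Hsd17b10 came to −0.05 and Ucp3 to −0.20. By limma on log2(FPKM + 1) these were −0.03 and −0.10, on log2(TPM + 0.1) −0.02 and −0.11, on log2(TPM + 1) with or without a filter −0.02 and −0.10, and by limma-voom −0.02 and −0.11. The cause was not tested. The members' median moved from −0.10 to between −0.16 and −0.17 on the TPM, FPKM and voom scales and to −0.20 with the cardiomyocyte level.

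When each library was left out in turn, the median of the members ran from −0.45 to 0.14 and that of the other fatty acid genes from −0.25 to 0.04. The log2 fold changes of the members that changed sign ran over these ranges: Acaa2 −0.69 to 0.07, Acad11 −0.29 to 0.20, Acadl −0.35 to 0.05, Acadm −0.46 to 0.16, Acads −0.31 to 0.18, Acadvl −0.45 to 0.13, Acat1 −0.45 to 0.13, Acot13 −0.17 to 0.10, Acot2 −0.75 to 0.11, Acsl1 −0.59 to 0.16, Cpt1a −0.13 to 0.13. In the same fits the values were Cpt1b −0.28 to 0.13, Cpt2 −0.55 to 0.17, Decr1 −0.61 to 0.05, Echs1 −0.30 to 0.16, Eci1 −0.38 to 0.21, Eci2 −0.40 to 0.07, Etfa −0.33 to 0.22, Etfb −0.42 to 0.21, Etfdh −0.48 to 0.12, Fabp3 −0.35 to 0.17, Hadh −0.50 to 0.17. For the rest they were Hadha −0.53 to 0.14, Hadhb −0.41 to 0.16, Hsd17b10 −0.19 to 0.18, Lpl −0.33 to 0.14, Mlycd −0.65 to 0.05, Pdk4 −1.50 to 0.23, Plin5 −0.50 to 0.24, Slc25a20 −0.57 to 0.08, Ucp3 −0.91 to 0.86. Slc27a1 (−0.73 to −0.06) and Pnpla2 (−0.48 to −0.11) did not change sign. No paired analysis was possible because the groups share no library number. With 3 libraries a group and a median SE of 0.32, small changes were not detectable, and an exact permutation test of 3 against 3 cannot go below p = 0.1.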

Other observations

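Several fatty acid genes outside the 33 members varied widely between libraries, and they were chosen here after their values were seen. Angptl4, which encodes an inhibitor of lipoprotein lipase and is a known PPAR target, stood at 28.3, 40.0 and 18.3 CPM in controls 35, 36, 37 against 15.4, 21.5 and 67.4 CPM in TFEB 34, 41, 43. TFEB 43 was thus the highest library, as it was for Pdk4 and Ucp3. The cytosolic thioesterase gene Acot1 stood at 18.2, 9.69 and 17.7 CPM in the controls and at 3.69, 4.98 and 22.4 CPM in the TFEB libraries, again with TFEB 34 and 41 below and TFEB 43 above all controls. The ketone body enzyme gene Bdh1 had another order, with 49.5, 108 and 22.1 CPM in the controls and 63.2, 70.2 and 67.9 CPM in the TFEB libraries.

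The other pyruvate dehydrogenase kinase genes did not spread as Pdk4 did. Pdk1 ran from 213 to 249.96 CPM and Pdk2 from 284 to 523 CPM over the 6 libraries, while Pdk3 ran from 5.21 to 15.03 CPM and was lowest in TFEB 43.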
